A study of Mus musculus with 6 samples.

Results

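The genes examined were 43 transcription factors that specify germ layers and early lineages, from *T* and *Eomes* of the primitive streak to *Pax6* of the neural plate and *Dlx5* of the limb and neural crest. They were chosen by name, but with earlier results of these data known. Their bound regions were all those in 6 ChIP-Seq peak lists that lie within 20 kb of the annotated gene body. Of the 43 genes, 42 have a gene in the mouse annotation for the build of the lists (mm9). *Sox1* has none there and is described apart. The 42 genes held 124 regions, none shared between genes, out of 15787 regions within 20 kb of any of 22380 protein-coding genes and 23767 regions in all. Percentages for the 42 genes are given beside the same share over all protein-coding genes or their regions, called the background below. A list of 52 other lineage transcription factor genes, for example *Gata5*, *Tbx20* and *Lhx1*, is given as a further reference. That list was also chosen with earlier results known, so neither gene list was picked independently of the data compared below.

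The ChIP-Seq targets were OCT4 and NANOG, in mouse E-GFPd1 ESCs (Esrrb-2a-GFPd-IBIH), an E14Tg2a line in which a 2a-destabilised GFP cassette follows the coding sequence of both *Esrrb* alleles, cultured in FCS and LIF. After fixation, cells were sorted by GFP into an Esrrb-GFP high fraction, which was the brightest 10%, a medium fraction, which was the 15% next to the negative cells, and an Esrrb-GFP negative fraction. No wild-type line or untreated control is among the 6 libraries, so the fractions are compared only with each other. There was 1 library per factor and fraction, made from pooled ChIPs, so no spread between replicates exists, no test was made, and the 95% Wilson intervals given cover counting error over genes or regions only. The lists hold positions without signal, so depth is unknown. A region missing from a list was not called, or fell below the study's signal threshold, in that fraction and may still be bound weakly. From high through medium to negative cells, the lists number 12449, 14464 and 10369 regions for OCT4 and 9425, 4729 and 286 for NANOG. The lists give no expression values, so the labelled cell type could not be checked against markers.

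As background, OCT4 is a POU factor that recognises an octamer and often binds DNA together with SOX2 at a composite Oct-Sox motif. NANOG is a homeodomain factor, and ESRRB an orphan nuclear receptor, of the naive pluripotency network. Lineage transcription factor genes are largely silent in ESCs, where many of them carry CpG-rich promoters under Polycomb control, and OCT4 remains expressed as cells leave naive pluripotency and enter the early epiblast lineages. ESRRB and NANOG decline earlier in that transition.

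The first sequences shown carry octamer-type matches, the kind of site that OCT4 recognises. Positions were searched within 100 bp of the region centre on both strands, and each sequence is printed from the matched strand of mm9 with the match in capitals. An exact octamer (ATGCAAAT) was present at 3 regions. They lie 205 bp upstream of the *Cdx2* start (chr5:148118952-148119151, minus strand, bound by OCT4 in all 3 fractions), in an exon of *Pax6* (chr2:105515588-105515609, minus strand, the stretch around the match, also OCT4 in all 3 fractions), and 4176 bp upstream of *Pax7* (chr4:139393521-139393721, minus strand, OCT4 in high and medium only).
Cdx2: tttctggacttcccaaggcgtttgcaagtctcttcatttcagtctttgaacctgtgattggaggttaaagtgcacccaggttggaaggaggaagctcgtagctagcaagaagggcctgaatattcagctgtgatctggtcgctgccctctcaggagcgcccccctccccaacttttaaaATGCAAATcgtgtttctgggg
Pax6: ccgcaacATGCAAATgcaccgc
Pax7: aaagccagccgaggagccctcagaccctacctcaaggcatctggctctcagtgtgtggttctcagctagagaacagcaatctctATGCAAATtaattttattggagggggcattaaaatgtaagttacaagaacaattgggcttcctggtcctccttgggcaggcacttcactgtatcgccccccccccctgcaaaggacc

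The composite Oct-Sox motif was searched as CATTGT or CTTTGT, 1 base of any kind and the octamer, with up to 2 mismatches. It overlaps the octamer search, since its second part is the octamer. No region of these genes matched with 0 or 1 mismatch. The matches with 2 mismatches, of which 6 are shown, were chosen for printing after their values had been seen, and the one at *Cdx1* is not shown. They were bound by OCT4 in all 3 fractions in the *Pax6* exon (chr2:105531478-105531506, plus strand), the *Pax3* intron (chr1:78116613-78116667, plus strand), the *Meis1* intron (chr11:18813409-18813463, minus strand) and downstream of *Dlx5* (chr6:6809666-6809720, minus strand). The *Msx1* match (chr5:38221211-38221265, plus strand) was bound in high and medium cells. The *Gsc* match (chr12:105713342-105713370, minus strand) was bound in medium cells only.
Pax6: tggcttgCTTTGTCATTCAAAGagacctt
Pax3: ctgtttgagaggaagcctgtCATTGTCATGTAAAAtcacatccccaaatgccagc
Meis1: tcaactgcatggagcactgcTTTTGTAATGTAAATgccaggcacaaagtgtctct
Dlx5: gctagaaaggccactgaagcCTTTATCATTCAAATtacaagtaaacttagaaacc
Msx1: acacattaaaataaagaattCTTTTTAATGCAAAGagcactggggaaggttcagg
Gsc: gtaaagtCATTGTAATGGAAAAaggtcac

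A further pair of sequences was also chosen after the values had been seen. The first holds the only exact ESRRB motif (TCAAGGTCA) near these genes, at a region downstream of *Tbx5* bound by NANOG without OCT4 (chr5:120343189-120343291, plus strand). The other spans 100 bp either side of the centre of an OCT4 region gained in an intron of *Tfap2a* (chr13:40826351-40826551, plus strand, 2741 bp from the start), which with 12 CG dinucleotides, in capitals, is the most CG-rich of the gained regions.
Tbx5: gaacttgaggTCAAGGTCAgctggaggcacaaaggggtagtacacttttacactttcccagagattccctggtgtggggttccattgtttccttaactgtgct
Tfap2a: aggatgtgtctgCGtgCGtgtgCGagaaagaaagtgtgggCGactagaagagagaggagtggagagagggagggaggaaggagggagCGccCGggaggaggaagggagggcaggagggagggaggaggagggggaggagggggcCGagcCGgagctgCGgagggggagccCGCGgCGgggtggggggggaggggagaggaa

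OCT4 lay near more than 50% of the lineage genes in each fraction, and the share of genes hardly moved. NANOG was listed near 17 of the 42 genes in high cells and near 0 in negative cells. An OCT4 region was within 20 kb of 24 of 42 genes in Esrrb-GFP high cells (57.1%, interval 42.2 to 70.9%), against a background of 31.5%. In medium cells it was 25 genes (59.5%, interval 44.5 to 73.0%) against 36.2%, and in negative cells 23 genes (54.8%, interval 39.9 to 68.8%) against 28.4%. A NANOG region lay near 17 genes in high cells (40.5%, interval 27.0 to 55.5%) against 23.3%, and near 11 in medium cells (26.2%, interval 15.3 to 41.1%) against 14.6%. In negative cells 0 of 42 genes had a NANOG region (interval 0 to 8.38%), where the background was 0.961%. The NANOG list of negative cells is short for the whole genome, so a count of 0 in 42 genes does not set these genes apart.

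The background shares lay below the members' intervals for OCT4 in all 3 fractions, and for NANOG in high and, narrowly, in medium cells. For OCT4 this held under every alternative tried. For NANOG it did not hold at 50 kb, with 21 of the 42 genes against 37.1% in high cells (interval 35.5 to 64.5%) and 28.6% against 23.8% in medium cells (interval 17.2 to 43.6%), nor in medium cells without the narrower regions (16.7% against 8.40%, interval 8.32 to 30.6%). In the 52 other lineage genes OCT4 was near 40.4% in high cells and 57.7% in both medium and negative cells. NANOG was near 19.2%, 7.69% and 1.92% of them from high to negative cells. The OCT4 share of the other lineage genes was thus higher in medium than in high cells while that of the 42 genes was nearly level, and NANOG was found near a smaller share of them than of the 42 genes. The intervals of both lists overlapped in every fraction.

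**Figure D1:**
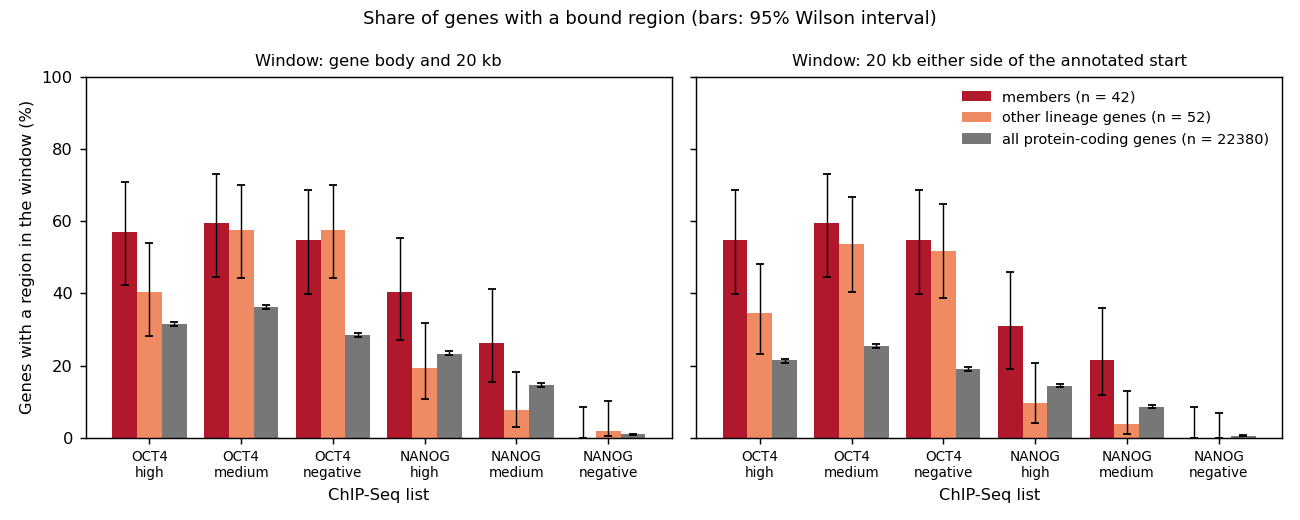
Percentage of genes with a bound region (y axis) in each of the 6 lists (x axis), for the 42 lineage factor genes, 52 other lineage genes and 22380 protein-coding genes. The left panel uses the gene body and 20 kb, the right panel 20 kb either side of the annotated start, and bars carry 95% Wilson intervals. OCT4 lies near 54.8% to 59.5% of the 42 genes in the 3 fractions of the left panel, above the grey background bars.

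The median gene length was 7881 bp for the 42 genes and 15420 bp for all protein-coding genes, although *Pax3* (95.9 kb), *Pax7* (96.5 kb) and *Meis1* (139 kb) are long. In a window of 20 kb either side of the annotated start, which is the same for every gene, OCT4 was near 23 genes in high cells (54.8%) against a background of 21.4%, and near 23 in negative cells (54.8%) against 19.1%. NANOG in high cells was near 13 genes (31.0%, interval 19.1 to 46.0%) against 14.4%, and 7 genes had 5 or more regions (16.7%, interval 8.32 to 30.6%) against 1.13%.

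Over all 6 lists, 31 genes (73.8%) had a region, against 46.4% of all protein-coding genes. OCT4 was found in at least 1 list near 29 genes (69.0%, background 40.8%) and NANOG near 17 (40.5%, background 23.8%). OCT4 without any NANOG was found near 14 genes (33.3%, background 22.6%). NANOG without any OCT4 was found near *Hesx1*, a homeobox gene of the forebrain and pituitary, and *Lhx2*, a LIM homeobox gene of the eye and forebrain (4.76%, background 5.59%).

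Regions were also denser. The 42 genes had a mean of 2.95 regions each, against 1.63 in the other lineage genes and 1.02 in all protein-coding genes, or 48.0, 25.5 and 11.9 regions per Mb of window. A total of 9 genes had 5 or more regions (21.4%, interval 11.7 to 35.9%), against 3.95% of protein-coding genes and 3.85% of the other lineage genes, and these 9 held 75 of the 124 regions (60.5%). Over all protein-coding genes, such genes held 27.3% of the gene and region pairs. *Tfap2a* had 13 regions, *Pax7* 11, *Dlx5* 10, *Pax6* 9, *Six3* 8, *Gata3* 7, *Pax3* and *Nkx2-2* 6 each and *Cdx2* 5. At the other end, 11 genes had none: *Mixl1*, *Mesp1*, *Tbx6*, *Sox17*, *Gata4*, *Gata6*, *Hnf4a*, *Hand1*, *Elf5*, *Gata2* and *Isl1*.

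**Figure D2:**
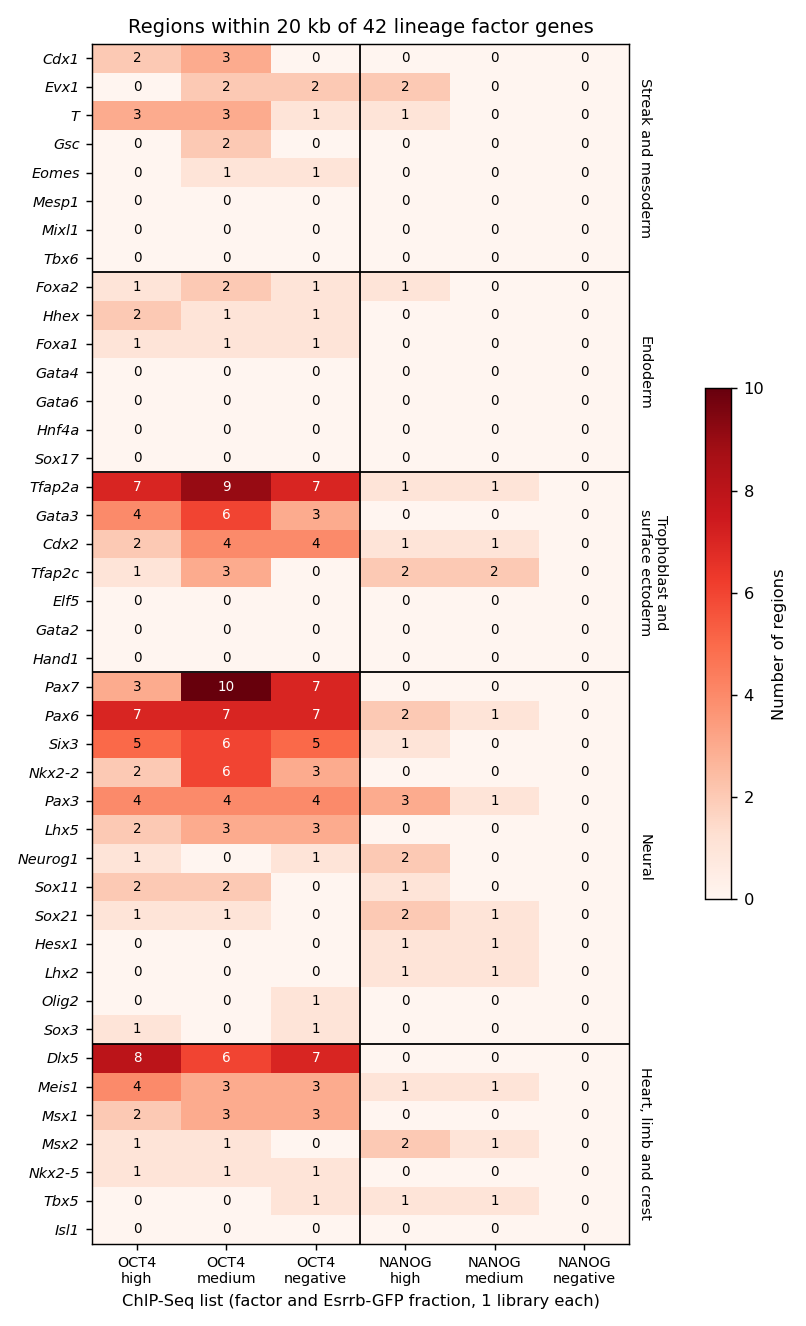
Number of regions within 20 kb of each of the 42 genes (rows, by lineage group) in each of the 6 lists (columns, 1 library each); darker cells hold more regions. Every gene of the neural group has a region, 4 of the 7 endoderm genes have none, and the NANOG negative column is 0 throughout. Of all protein-coding genes, 46.4% have a region.

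For the lineage groups described next, the background share of genes with a region in any list is 46.4%. Of the streak and mesoderm genes, 5 of 8 had regions, 12 in all, with OCT4 at 5 in high, 11 in medium and 4 in negative cells. The medium OCT4 list is also the longest near all protein-coding genes, with 8250, 9825 and 6836 regions. *T* (Brachyury, the T-box factor of the streak and notochord) had 3 regions. OCT4 was at chr17:8607352-8607471, 19877 bp upstream of the start, in all 3 fractions. At chr17:8622892-8623271, 4207 bp upstream, OCT4 was present in high and medium and NANOG in high cells, and at the neighbouring chr17:8623312-8623371 OCT4 alone was present in high and medium cells. *T* thus kept only its most distant OCT4 region in negative cells, and that region lies closer to *Sft2d1*.

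*Cdx1*, a caudal-type homeobox gene of the posterior embryo, had 2 OCT4 regions in high, 3 in medium and none in negative cells, all within 1482 bp of its start. *Eomes*, a T-box factor of the streak and trophoblast, had 1 OCT4 region downstream in medium and negative cells. *Evx1*, a homeobox gene of the posterior streak, had NANOG at 2 regions in high cells, and OCT4 at 2 regions in medium and negative cells. The exonic one, chr6:52267832-52267991, was in both sets, with NANOG in high cells and OCT4 in medium and negative cells, and it was the only region near the 42 genes with such an exchange. *Gsc*, the organiser homeobox gene, had 2 OCT4 regions in medium cells only, so it counts as unbound in a comparison of high with negative cells. Its upstream region lies inside *Gm10000*.

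Endoderm genes had the fewest regions, 5 in 3 of 7 genes, a share of genes close to the background of 46.4%. *Foxa2*, a forkhead factor of the node and endoderm, had OCT4 in all 3 fractions and NANOG in high cells at chr2:147866432-147866711, downstream of the gene, and OCT4 in medium cells only at chr2:147873852-147873891, 1166 bp upstream. Its relative *Foxa1* had 1 OCT4 region, 3323 bp upstream, in all 3 fractions. *Hhex*, a homeobox gene of anterior endoderm, had OCT4 at 1 region in all fractions and at another in high cells only, both over 6 kb upstream and closer to *Kif11*. None of *Sox17*, *Gata4*, *Gata6* and *Hnf4a*, central factors of definitive, primitive and visceral endoderm, had a region within 20 kb.

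Trophoblast and surface ectoderm genes had 29 regions at 4 of 7 genes, with OCT4 at 14, 22 and 14 of them from high to negative cells, and NANOG at 4 in both high and medium cells. *Cdx2*, a trophectoderm determinant that acts in opposition to OCT4 in the early embryo, had 5 OCT4 regions, 2 in high, 4 in medium and 4 in negative cells. Besides the octamer region at the promoter, whose sequence is given above, OCT4 and NANOG shared chr5:148115812-148116251 in an intron in high and medium cells, and neither was listed there in negative cells. OCT4 was gained at chr5:148097932-148097971 and chr5:148131832-148131931 from medium cells on, and at chr5:148116792-148116831 in negative cells only. The outer pair of these lies closer to *Pdx1* and *Prhoxnb*.

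*Tfap2a*, an AP-2 factor of surface ectoderm and neural crest, had OCT4 at 7, 9 and 7 regions from high to negative cells, but at few of the same places. All 3 fractions shared chr13:40804212-40804391 and chr13:40829352-40829631, the latter 299 bp upstream of the start, and chr13:40799672-40799751 was shared by high and negative cells. The region chr13:40799672-40799751 lies inside *Gm9979*, and chr13:40804212-40804391 lies closer to *Gm9979* than to *Tfap2a*. OCT4 was lost from chr13:40810092-40810151 (high only), chr13:40812852-40812931, chr13:40814932-40814971 and chr13:40832932-40832971 (high and medium). NANOG joined OCT4 at the second of these, in high and medium cells.

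OCT4 was gained near *Tfap2a* at chr13:40826432-40826471 and chr13:40829952-40830011 (medium and negative) and at chr13:40824912-40824971 and chr13:40828532-40828571 (negative only), and was in medium cells only at chr13:40810172-40810251 and chr13:40827772-40828211. The 4 gained regions lie within 4251 bp of the start, and the 4 lost ones lie 3759 bp upstream or more than 14 kb into or past the gene. An equal number of OCT4 regions in the high and negative lists therefore came from partly different positions. These are differences in calls, not in measured signal. According to the paper, sites gained in negative cells had some OCT4 signal in high cells already.

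*Tfap2c*, the AP-2 factor of trophoblast and germ cells, lost all binding. NANOG was at chr2:172369972-172370631 without OCT4, and at chr2:172402672-172403151 with OCT4, in high and medium cells, and OCT4 alone was at chr2:172369672-172369711 and chr2:172375672-172375771 in medium cells. *Gata3*, a zinc finger factor of trophectoderm and several later lineages, had no NANOG. Its OCT4 regions were chr2:9804732-9804791 in all fractions, chr2:9783592-9783711 and chr2:9825952-9825991 in high and medium cells, chr2:9826452-9826511 in high and negative cells, chr2:9809472-9809531 in medium and negative cells, and chr2:9805092-9805171 and chr2:9806012-9806071 in medium cells. The region in all fractions and those of medium cells without high also lie inside *9230102O04Rik*, which overlaps *Gata3*, and the pair upstream of *Gata3* is closer to *Taf3*.

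Neural genes were the best covered, with a region at 13 of 13 (background 46.4%), although *Hesx1* and *Lhx2* had NANOG only. The group includes the long genes *Pax3* and *Pax7* and held 54 regions in all. OCT4 was at 28, 39 and 32 of them from high to negative cells, and NANOG at 13 in high and 5 in medium cells. OCT4 was lost from 8 of the 28 regions of high cells (28.6%, interval 15.3 to 47.1%, against 45.8% of all). *Pax6*, the paired-box factor of eye and neural tube, had OCT4 at 7 regions in each fraction. They included chr2:105501492-105501631, chr2:105508052-105508111, chr2:105515552-105515651, which holds the octamer shown above, chr2:105528212-105528251 and chr2:105531472-105531611 in all 3 fractions.

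At the last of these *Pax6* regions NANOG was also present in high cells. OCT4 was in high and negative cells at chr2:105514572-105514691, in high and medium cells, with NANOG in the same fractions, at chr2:105517472-105518211, in negative cells only at chr2:105509272-105509311, and in medium cells only at chr2:105513092-105513131. At 6 of its 9 regions OCT4 was therefore present in both high and negative cells.

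*Pax3*, a paired-box factor of the dorsal neural tube and neural crest, had OCT4 in all 3 fractions at chr1:78116612-78116731, with NANOG in high and medium cells, and at chr1:78140112-78140191 and chr1:78185632-78185871 without NANOG. At chr1:78164692-78164791 OCT4 was in high and medium and NANOG in high cells, at chr1:78137172-78137371 OCT4 was in negative cells only, and at chr1:78116992-78117031 NANOG was in high cells without OCT4. All 6 regions are intronic. *Pax3* is the only gene of the 42 with NANOG at 3 regions in high cells.

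*Pax7*, the paralogue of *Pax3* in the dorsal neural tube and muscle, had no NANOG and a different course of OCT4, with 3, 10 and 7 regions from high to negative cells. Only chr4:139383272-139383311 was in all 3 fractions. The regions chr4:139324112-139324151 and chr4:139393392-139393851, the latter with the octamer, were in high and medium cells. Of the gained regions, chr4:139375892-139375951, chr4:139378372-139378431, chr4:139378632-139378711, chr4:139382132-139382211 and chr4:139392012-139392131 were already in medium cells, and chr4:139378272-139378351 was in negative cells only. The medium list alone held chr4:139376752-139376931 and chr4:139389672-139389791. *Pax7* thus had more gained OCT4 regions, 6, than any other of the 42 genes when regions are counted singly. Among them, chr4:139378272-139378351, chr4:139378372-139378431 and chr4:139378632-139378711 lie within 500 bp of each other. *Pax7* is also among the longest of the 42 genes, at 96.5 kb.

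*Six3*, a homeobox factor of the forebrain and eye, had OCT4 at 5 regions in high, 6 in medium and 5 in negative cells. All fractions shared chr17:86012432-86012531, 467 bp upstream of the start, chr17:86020372-86020431, chr17:86024352-86024411 and chr17:86045712-86045931, where NANOG was present in high cells. The others were chr17:86018132-86018371 in high cells only, chr17:86013892-86014071 and chr17:86016752-86017151 in medium cells only, and chr17:86010052-86010111 in negative cells only. *Nkx2-2*, a homeobox factor of ventral neural tube, had 2, 6 and 3 OCT4 regions and no NANOG. They were chr2:147012652-147012831 and chr2:147015272-147015491 in all fractions, chr2:147014992-147015091 in medium and negative cells, and chr2:147006392-147006451, chr2:147011812-147011851 and chr2:147012952-147013071 in medium cells only.

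Among SOX genes of the neural group, *Sox11* and *Sox21* lost OCT4 and *Sox3* kept it. *Sox11*, expressed in immature neurons, had OCT4 and NANOG at chr12:28005712-28005831 and OCT4 alone at chr12:28022752-28022791, OCT4 in high and medium and NANOG in high cells. *Sox21* had the same combination at chr14:118629632-118629831, and NANOG without OCT4, in high and medium cells, at chr14:118631412-118631451. *Sox3*, an early neural SOXB1 factor, had 1 region with OCT4 in high and negative cells.

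*Sox1*, a SOXB1 factor of the neural plate, is not part of the counts. Its start was placed at chr8:12395519 by the only exact match of its RefSeq promoter window (GRCm38.p6 table) in mm9, at chr8:12395269-12395568. The 1 region within 20 kb of that start, chr8:12387792-12387831, lies 7708 bp upstream and was bound by OCT4 in negative cells only.

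The remaining neural genes had 1 to 3 regions. *Lhx5*, a LIM homeobox gene, had OCT4 at 2 regions in high and 3 in medium and negative cells. *Neurog1*, a proneural bHLH gene, had NANOG at 2 regions in high cells and OCT4 at another in high and negative cells. *Olig2*, a bHLH factor of motor neuron and oligodendrocyte precursors, had 1 OCT4 region in negative cells only. *Hesx1* and *Lhx2* had NANOG in high and medium cells, at an exon 173 bp from the *Hesx1* start and in an intron 1560 bp from the *Lhx2* start.

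Heart, limb and crest genes had 24 regions at 6 of 7 genes, with OCT4 at 16 in high, 14 in medium and 15 in negative cells. *Dlx5*, a distal-less homeobox gene, had OCT4 at 8, 6 and 7 regions and no NANOG. All fractions shared chr6:6809592-6809971, chr6:6810272-6810311, chr6:6824312-6824391, chr6:6824772-6824831 and chr6:6832232-6832431, the last 246 bp upstream of the start, and chr6:6810692-6811171 was in high and negative cells. High cells alone held chr6:6820732-6820891 and chr6:6831212-6831271, medium cells alone chr6:6811212-6811391, and negative cells alone chr6:6809332-6809471. Of the 10 regions, 6 lie closer to the adjacent paralogue *Dlx6*, so they cannot be assigned to *Dlx5* alone.

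*Meis1*, a homeobox cofactor of HOX proteins, had OCT4 at chr11:18813432-18813491 and chr11:18912472-18912551 in all fractions and at chr11:18846172-18846271 in high and negative cells, and OCT4 and NANOG together at chr11:18926112-18926231 in high and medium cells. *Msx2*, a homeobox gene of limb and crest, had OCT4 in high and medium and NANOG in high cells at chr13:53556872-53557151, and NANOG without OCT4 in high and medium cells at chr13:53566292-53566411. Its paralogue *Msx1* had no NANOG and OCT4 at 2 regions in high, 3 in medium and 3 in negative cells. *Msx2* thus had no region left in negative cells while *Msx1* had 3.

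*Nkx2-5*, the cardiac homeobox gene, had OCT4 downstream in high and medium cells and in an intron, 609 bp from the start, in negative cells, so different regions were bound in high and in negative cells. *Tbx5*, a T-box factor of heart and forelimb, had OCT4 in negative cells only, 989 bp from the start, and NANOG in high and medium cells at the ESRRB-motif region shown above. *Isl1*, a LIM homeobox gene of the second heart field and motor neurons, had no region.

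**Figure D3:**
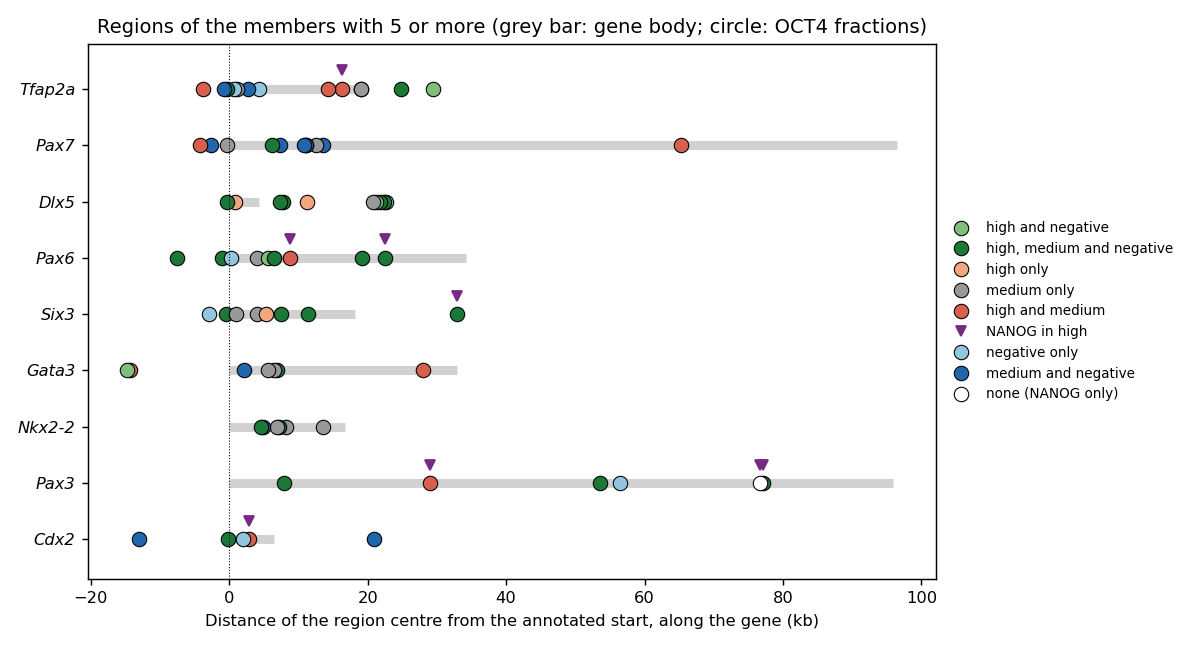
Regions of the 9 genes with 5 or more, by distance of the region centre from the annotated start along the gene in kb (x axis); the grey bar is the gene body, the circle's colour gives the fractions with OCT4, and a triangle marks NANOG. *Tfap2a* and *Pax7* have blue circles (gained) near the start, *Dlx5* has green ones (kept) at the start and beyond the gene, and triangles are absent from *Pax7*, *Dlx5*, *Gata3* and *Nkx2-2*.

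At the level of genes, most of those with OCT4 in high cells kept it. From Esrrb-GFP high to negative cells, 18 genes (42.9%) kept at least 1 OCT4 region, against a background of 20.7% of genes. They are 18 of the 24 genes with OCT4 in high cells (a share whose interval is 55.1 to 88.0%), against 65.5% of all genes with OCT4 there, and the 5 that lost it are 20.8% (interval 9.24 to 40.5%) against 28.3%, so both backgrounds lie inside the intervals. *Nkx2-5* exchanged its region for another (2.38%, background 1.93%). *Cdx1*, *Tfap2c*, *Sox11*, *Sox21* and *Msx2* lost all OCT4 (11.9%, background 8.94%), and *Eomes*, *Evx1*, *Tbx5* and *Olig2* gained it (9.52%, background 5.84%). *Gsc* had OCT4 in medium cells only (2.38%, background 3.45%). In the other lineage genes 32.7% kept, 3.85% lost and 21.2% gained OCT4.

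At the level of regions, the turnover near these genes was close to that near all genes. OCT4 was at 67 regions in high, 90 in medium and 68 in negative cells. Of the 67 regions of high cells, 40 were kept in negative cells (59.7%, interval 47.7 to 70.6%) against a background of 54.2%, and 27 were lost (40.3%, interval 29.4 to 52.3%) against 45.8%. Of the same 67, 55 were also in medium cells (82.1%, background 78.9%). Gained regions made up 28 of the 68 of negative cells (41.2%, interval 30.3 to 53.0%) against 34.6%, and 16 of these 28 were already in medium cells (57.1%, interval 39.1 to 73.5%, background 69.5%). Each of these backgrounds lies inside the interval of the 42 genes. At 5 kb from the gene body the gained share was 49.0% (interval 35.9 to 62.3%) and its background, 34.5%, lay below the interval. In the other alternatives the gained share ran from 38.3% to 47.2%, above its background and with the background inside the interval each time.

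The fractions combined as follows. Of 114 OCT4 regions, 33 were in all 3 fractions, 22 in high and medium and 5 in high only. A further 7 were in high and negative but not medium, 16 in medium and negative, 19 in medium only and 12 in negative only. Near all protein-coding genes, the 12288 OCT4 regions divided into 3761, 2748, 1032, 709, 1644, 1672 and 722 in the same order. In both sets all 3 fractions was the most frequent combination, and high and medium the next. That ranking therefore does not set these genes apart. Regions of the medium list alone were 21.1% of that list (interval 14.0 to 30.6%, background 17.0%). Regions of the negative list alone were 17.6% of it (interval 10.4 to 28.4%, background 10.6%, just inside the interval). Near the other lineage genes gained regions were 58.9% of those in negative cells (interval 45.9 to 70.8%), above the background of 34.6%.

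The share of OCT4 regions lost was 45.8% over all protein-coding genes, and it lay inside the interval of each lineage group. Lost regions were 4 of 5 in high cells for streak and mesoderm genes (80.0%, interval 37.6 to 96.4%) and 8 of 14 for trophoblast and surface ectoderm genes (57.1%, interval 32.6 to 78.6%). They were 6 of 16 for heart, limb and crest genes (37.5%, interval 18.5 to 61.4%), 8 of 28 for neural genes, as given above, and 1 of 4 for endoderm genes (25.0%, interval 4.56 to 69.9%). The intervals of the groups overlap, and no difference between groups was tested. Regions of 1 gene are not independent, since 36 of the 124 regions lie within 500 bp of another region of the same gene.

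NANOG was confined to high and medium cells near these genes and met OCT4 there at 14 of its 25 regions. All 25 NANOG regions were in high cells, 12 of them also in medium cells (48.0%, interval 30.0 to 66.5%, background 48.5%) and none in negative cells, so that 100% were lost (interval 86.7 to 100%) against a background of 97.5%. In high cells, 14 of the 25 also held OCT4 (56.0%, interval 37.1 to 73.3%), against 38.6%. Seen from OCT4, NANOG was at 14 of 67 regions of high cells (20.9%, interval 12.9 to 32.1%), against 28.0%. OCT4 regions without NANOG in any list numbered 99 of 114 (86.8%, interval 79.4 to 91.9%), against 78.4%, just below the interval.

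Of the 14 regions that both factors shared in high cells, 10 had neither factor in negative cells (Class I) and 4 kept OCT4 without NANOG (Class II). Class I regions lay near *T*, *Cdx2*, *Tfap2c*, *Tfap2a*, *Pax6*, *Pax3*, *Sox11*, *Sox21*, *Meis1* and *Msx2*, 10 genes with 1 each (23.8%, interval 13.5 to 38.5%, background 6.97%). Class II regions lay near *Foxa2*, *Pax6*, *Pax3* and *Six3* (9.52%, background 5.02%). At all 10 Class I regions OCT4 was still listed in medium cells, and at 5 of them, near *Cdx2*, *Tfap2c*, *Tfap2a*, *Pax6* and *Meis1*, so was NANOG. Near all protein-coding genes, 78.9% of OCT4 regions and 48.5% of NANOG regions of high cells were also in medium cells. These background shares are not restricted to Class I regions. *Pax6* and *Pax3* had a region of each class. Counted per region, Class I made up 10 of the 67 OCT4 regions of high cells (14.9%, interval 8.31 to 25.3%) against a background of 15.8%, and Class II 4 of 67 (5.97%, interval 2.35 to 14.4%) against 11.6%. The gene share of Class I was thus above its background while the region share was not, beside the larger number of regions per gene given above.

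NANOG without OCT4 in any fraction was found at 10 of the 25 NANOG regions, against 3499 of 6148 near all protein-coding genes. The 10 lay near *Tfap2c*, *Pax3*, *Sox21*, *Hesx1*, *Lhx2*, *Tbx5*, *Msx2*, *Evx1* and, with 2, *Neurog1*. Of the 17 genes with NANOG, 15 also had OCT4 at the same or another region (88.2%, interval 65.7 to 96.7%), against 76.6%.

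**Figure D4:**
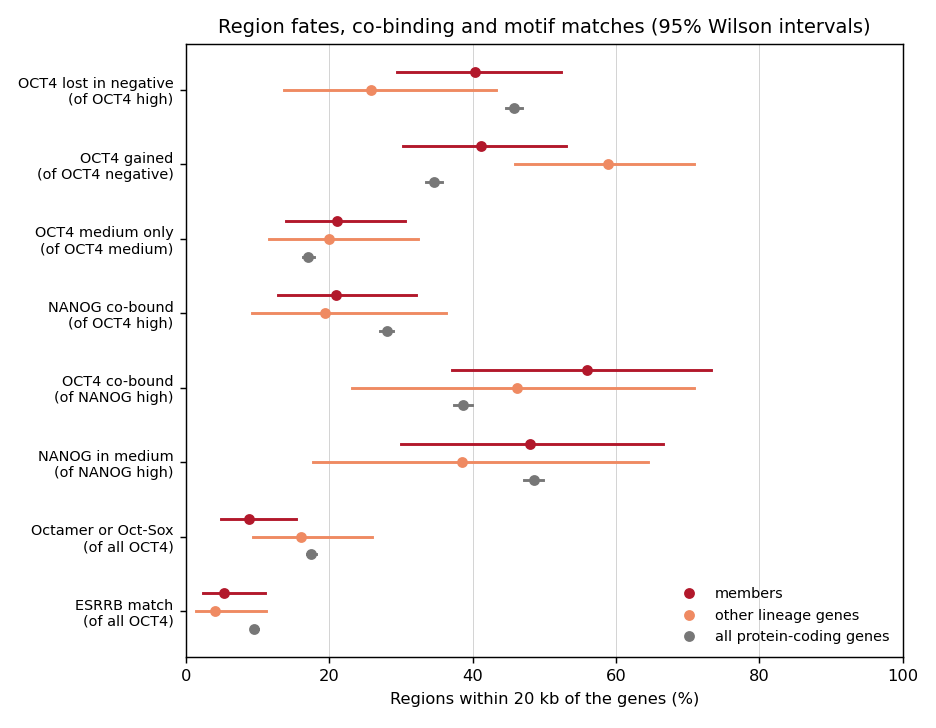
Percentage of regions (x axis) with each fate, co-binding or motif (y axis, with the set that is counted in brackets), for regions within 20 kb of the 42 genes, the other lineage genes and all protein-coding genes; lines are 95% Wilson intervals. For loss and gain of OCT4 the red intervals contain the grey points, while the red interval for an octamer or Oct-Sox match ends at 15.4%, below the grey point at 17.5%.

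OCT4 regions near the lineage genes carried fewer octamer-type motifs than those near other genes. An exact octamer was within 100 bp of the centre at 3 of 114 OCT4 regions (2.63%, interval 0.899 to 7.45%) against a background of 9.12%. An Oct-Sox match with up to 2 mismatches was at 7 (6.14%, interval 3.01 to 12.1%) against 11.2%, and either motif at 10 (8.77%, interval 4.83 to 15.4%) against 17.5%. The backgrounds for the octamer and for either motif lie above the intervals, and that for Oct-Sox lies inside. The 52 other lineage genes had either motif at 16.0% of OCT4 regions. At regions kept in negative cells the share was 15.0% (6 of 40, background share 22.9%) and at lost ones 11.1% (3 of 27, 13.7%). At gained ones it was 0 of 28 (interval 0 to 12.1%), against 19.0%. The gained regions of the other lineage genes also had a share below 19.0%, 3 of 33 (9.09%, interval 3.14 to 23.6%), with 19.0% inside that interval. The ESRRB motif TCAAGGTCA with up to 1 mismatch was at 6 of 114 (5.26%, interval 2.43 to 11.0%) against 9.55%, which lies inside the interval. With a window of 50 bp either side, the Oct-Sox background lay above the interval (2.63%, interval 0.899 to 7.45%, against 8.38%), and with 250 bp so did that of ESRRB (12.3%, interval 7.46 to 19.6%, against 19.8%). The backgrounds for the octamer and for either motif lay above the interval at all 3 windows. A match is a description of letters and the lack of a match says nothing about the factor.

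Base composition differed as well. The median GC content within 100 bp of the centre was 52.7% at OCT4 regions of the lineage genes and 49.3% near all protein-coding genes, and the mean number of CG dinucleotides was 5.27 against 2.97. The octamer is rich in A and T, and the part of GC content in its lower frequency was not tested. The mean number of CG dinucleotides was 6.68 at gained regions against a background of 3.55, 5.92 at kept regions against 2.88 and 3.52 at lost regions against 2.51. Gained and kept regions had the same median, 6.5, with quartiles of 4 and 8.5 for gained and 2.75 and 9 for kept regions. Near the other lineage genes the means were 5.39, 3.26 and 3.50.

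**Figure D5:**
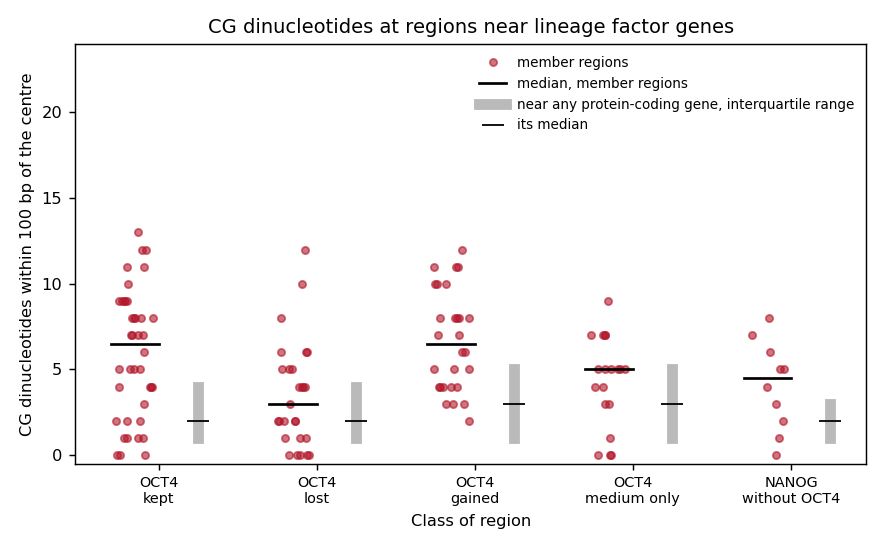
Number of CG dinucleotides within 100 bp of each region centre (y axis) by class of region (x axis); red points are single regions of the 42 genes with their median as a line, and the grey bar and tick are the interquartile range and median of regions near any protein-coding gene. The red medians of kept regions, gained regions and NANOG regions without OCT4 lie above their grey bars. That of lost regions lies within its bar, and that of medium-only regions at the upper end of its bar.

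By position, 53 of the 124 regions lay in introns (42.7%, background 39.8% of gene and region pairs), 34 upstream (27.4%, background 30.5%), 28 downstream (22.6%, background 26.4%) and 9 in exons (7.26%, interval 3.87 to 13.2%, background 3.36%). The median distance from the gene's start was 6483 bp. Within 5 kb of the start lay 50 regions (40.3%, interval 32.1 to 49.1%, background 17.1%) and within 1 kb 15 (12.1%, interval 7.47 to 19.0%, background 5.25%), in genes that are shorter at the median than the background genes. Of OCT4 regions, 16 of 114 were within 1 kb of an annotated start of any gene (14.0%, interval 8.83 to 21.6%), against a background of 8.13%. Promoter-proximal OCT4 regions in all 3 fractions were those upstream of *Cdx2*, *Tfap2a*, *Pax6*, *Six3* and *Dlx5*. The lineage gene was the closest protein-coding gene, alone or together with an overlapping one, for 107 regions (86.3%, background 70.4%), and the others, among them those beside *Dlx6* and *Taf3*, lie nearer to a neighbour.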

How the data were processed

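OCT4 and NANOG ChIP-Seq lists of 3 sorted Esrrb-GFP fractions of E-GFPd1 ESCs were used, 1 library per factor and fraction, grouped by the antibody and sorted fraction of the labels (the source name calls the negative fraction low). The authors aligned reads with Bowtie to mm9 (submitters' processing notes), used GeneProf with the peak caller SISSRs, joined peaks that overlapped between datasets, and counted a peak as lost in a fraction whose depth-normalized signal was under 50% of that peak's highest. The deposited intervals have no score and are the same in every list that holds them, so depth is unknown and precision is given by Wilson intervals alone.

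Regions of all lists were merged at 1 bp of overlap and assigned to each protein-coding gene of GENCODE vM1 (NCBIM37, the assembly of mm9) whose body lay within 20 kb. *Tfap2a* and *Tfap2c* are listed there as *Tcfap2a* and *Tcfap2c*. Fates compare high with negative cells; at the gene level, kept means at least 1 region in both lists.

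The genes and both gene lists were chosen with earlier results of these data known. Every gene is named with its regions; all coordinates are given for the 10 genes with most regions and those with Class I or Class II regions (the same rule covers NANOG in negative cells, which no gene had), and sequences for an exact octamer or an Oct-Sox match with at most 1 mismatch. Alternatives were 5 kb or 50 kb, a window around the start, the closest gene only, wider regions, merging within 500 bp, 50% reciprocal overlap, and motif windows of 50 bp or 250 bp. Python 3.11.15, numpy 2.4.6, scipy 1.17.1, pysam 0.24.0 and matplotlib 3.10.9 were used; 11 of 11 known answers were recovered on simulated data.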

Additional observations from a re-analysis of the deposited data

How the results depend on the processing

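No paired analysis was possible because each factor and fraction has 1 library. Of 81 values recomputed under the alternatives, 74 were classed as the same, a class that allowed sizeable shifts, and 7 as moved. Genes with OCT4 in negative cells, classed as the same, numbered 32 at 50 kb instead of 23 (background 43.7% instead of 28.4%). The 50% reciprocal overlap could change no value, because the deposited intervals are the same in every list that holds them. The values that moved were as follows. Class I regions numbered 6 at 5 kb from the gene body instead of 10, and Class II regions 1 within 20 kb of the annotated start instead of 4. When regions narrower than their list's median were dropped, 7 genes had NANOG in medium cells (background 8.40%), and 37.1% of OCT4 regions in high cells held NANOG (background 43.7%). Octamer or Oct-Sox matches fell to 4.39% of OCT4 regions with a window of 50 bp either side of the centre (background 12.9%). ESRRB matches were 1.75% at 50 bp (background 4.65%) and 12.3% at 250 bp (background 19.8%, which then lay above the interval of the 42 genes). In each of these settings the members' motif and co-binding shares stayed below the background. For co-binding with the wider regions (interval 23.2 to 53.7%) and for ESRRB at 50 bp (interval 0.482 to 6.17%), however, the background lay inside the interval. The lists carry no signal, so weak binding and absence cannot be told apart.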

Other observations

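OCT4 was in at least 1 list at 18292 of all 23767 regions. The nearest region to each of the 11 genes without one inside 20 kb was OCT4-bound for 9 of them, a similar share. It lay 24.6 kb from *Mesp1*, 26.1 kb from *Hnf4a*, 29.5 kb from *Hand1*, 40.6 kb from *Gata2* and 50.7 kb from *Elf5*. For *Mixl1*, *Sox17*, *Gata4* and *Tbx6* it was 82.2, 93.9, 189 and 328 kb away. OCT4 was in all 3 fractions at the nearest regions of *Mixl1*, *Mesp1*, *Tbx6*, *Gata4* and *Hand1*, in negative cells only at that of *Sox17*, in high and medium cells at that of *Elf5*, and in high and negative cells at those of *Hnf4a* and *Gata2*. For *Isl1* and *Gata6*, 95.5 and 129 kb away, the nearest region held NANOG in high and medium cells and no OCT4. A larger distance would therefore add OCT4 to some of these genes, as it does to genes at large. At 50 kb, OCT4 in high cells was near 48.0% of all protein-coding genes, against 31.5% at 20 kb.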
